A study of Drosophila melanogaster with 42 samples.

Results

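Whole female flies in which a dominant-negative form of Drosophila p53 (DN-Dmp53) was induced in adult neurons were compared with uninduced flies of the same genotype at day 10 of adult life. The arrays were chosen by their sample titles alone, 3 labelled p53 knockdown and 3 labelled p53 control at day 10, which are 6 of the 42 arrays of the series. All non-control probesets were analysed, and genes were read from the 13647 of 18769 probesets that name 1 gene. Both groups were females of the yw, w1118 background that carried the ELAV-GeneSwitch driver and the Dmp53 construct, and their diet is labelled as normal. The treated group received RU486, which switches the driver on, from eclosion, and the control group received the ethanol diluent. Each sample was RNA from a pool of whole females, and the study describes the 3 arrays of a group as independent biological replicates. The driver acts in neurons while the RNA is from the whole body, so that fewer cells of a type and less RNA per cell cannot be told apart. Flies on RU486 without a construct were not analysed here, so that the drug and the transgene product cannot be told apart.

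p53 is a transcription factor that, after DNA damage, arrests growth or kills the cell by switching on target genes such as those for apoptosis. It binds DNA as an assembly of several copies, and a dominant-negative copy that joins the assembly blocks it at the level of the protein, not of the transcript. In flies, expression of such a form in adult neurons is known to lengthen life, and this comparison was set against diet restriction (DR) and dSir2, a deacetylase, as the question of which transcripts these interventions share.

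The deposited values are log2 expression per probeset and run from a floor of 2.11 to 16.22. The floor held 39.8 to 40.4% of probesets on each of the 6 arrays, and a gene that starts there cannot be seen to fall. Array medians were 2.79 to 2.88. Arrays correlated with those of their own group at 0.9951 to 0.9992 and with those of the other group at 0.9907 to 0.9949. Replicate 3 of both groups stood apart from replicates 1 and 2, with array weights of 0.336 in the control and 0.397 in the treated group. As a check of the label, all 4 yolk and all 17 eggshell genes exceeded a log2 level of 4 on every array. Of 25 genes of male organs 1 did.

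The p53 transcript itself was 9.96, 10.16 and 10.02 on the treated arrays and 9.85, 9.89 and 9.72 on the control arrays. The treated arrays all lay above the control arrays, by 0.23 on the log2 scale (standard error 0.07), and the difference did not pass the test over all genes (adjusted p = 0.223). The second p53 probeset was at the floor in both groups. The sources used here do not say which part of the gene these probes read, or whether they see the transgene. Although the labels call the treated group a knockdown, the p53 transcript was not lower in it on any probeset. Of 23 genes of the p53 and DNA damage response tested, none was called in either direction, against 2.3% of all genes tested. At that share a list of 23 genes can hold no call. Their median change was -0.07. The other longevity genes of the study lay close to 0, with Sirt1 (the dSir2 gene) at -0.18, HDAC1 (Rpd3) at -0.22, chico at -0.04, Indy at 0.13 and mth at 0.01, and none passed.

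Induction of DN-Dmp53 was accompanied by a fall of cuticle genes, of the storage protein Lsp2 and of the enzyme Gnmt, and by a rise of peptidases of the spermatheca, of the clock gene tim and of a small set of genes that were low in the controls. Of 9395 genes tested with limma, 111 were higher (1.18%) and 105 lower (1.12%), or 2.3% in all, where a call asked for an adjusted p below 0.05 together with a fold above 1.5. Measured on the probeset with the highest mean, falls were larger than rises. Among 104 genes called lower on that probeset the median change was -2.31, and 56 fell by more than 2 on the log2 scale. Among 110 called higher the median was 0.87, and 15 rose by more than 2. The 3 treated arrays did not overlap the 3 control arrays for any of these genes, against 24.7% of all genes tested. The calls were made on these same arrays and favour separate groups, so that this is no added evidence. The mean treated level of 31 of the 104 was within 0.1 of the floor, so that their falls are lower bounds. With the replicate number as a block, 50 genes were higher (0.532%) and 43 lower (0.458%), of which 35 and 41 were also called without the block. Leaving out replicate 3 of both groups gave 32 higher (0.341%) and 50 lower (0.532%), 24 and 40 of them shared with the full comparison. Leaving out single arrays gave 26 to 71 higher and 45 to 106 lower, with the fewest without treated replicate 2. A plain t-test with the thresholds that the methods set (p below 0.01 with no adjustment) gave 169 higher (1.8%) and 127 lower (1.35%), or 3.15% in all.

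**Figure D1:**
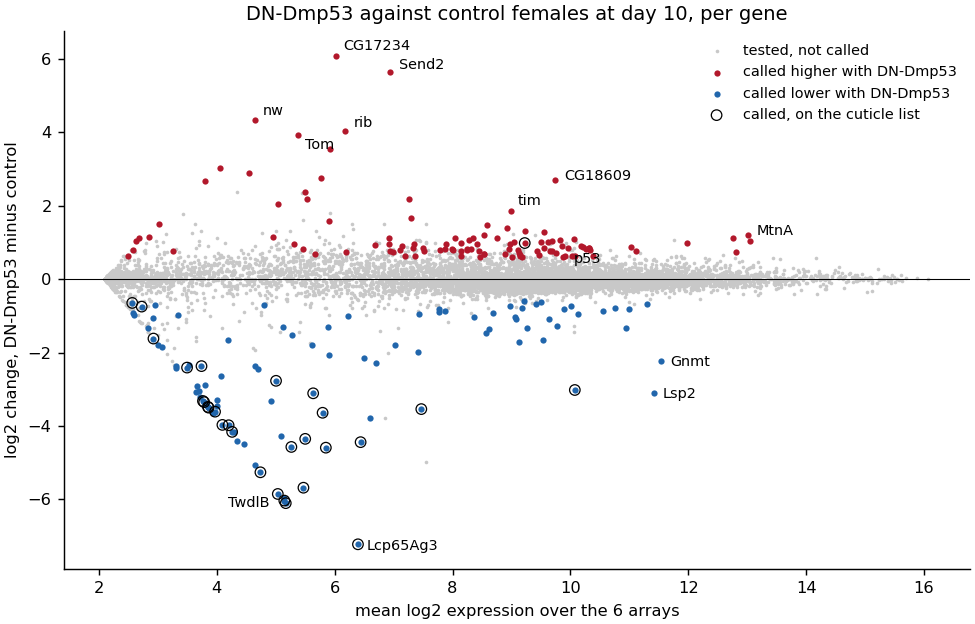
Mean log2 expression over the 6 arrays (x axis) against the log2 change, DN-Dmp53 minus control (y axis), for the genes tested, each on its representative probeset. Red and blue points are genes called higher and lower and circles mark called genes of the cuticle list. Of the 105 genes called lower 28 are on that list, among them the lowest point, Lcp65Ag3 at -7.22.

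The insect cuticle is a layer of chitin and protein that the epidermis secretes, and most of its genes are best known from embryos, larvae and pupae that are making a new cuticle. The largest fall was that of Lcp65Ag3, a larval cuticle protein, which was 2.69, 3.20 and 2.46 on the treated arrays and 10.24, 10.12 and 9.65 on the control arrays. It fell by 7.22 on the log2 scale (standard error 0.26, adjusted p = 0.00139), from a high level in every control to near the floor in every treated array. TwdlB, of the Tweedle family of cuticle proteins, was 2.13, 2.11 and 2.11 against 8.50, 7.88 and 8.27, a fall of at least 6.10 on the log2 scale (change -6.10, adjusted p = 0.000568). TwdlN (-6.03), TwdlF (-5.85), TwdlM (-5.68) and TwdlL (-5.26) fell in the same way, with treated arrays between 2.11 and 2.63 and control arrays between 7.11 and 8.78. Cpr64Ad (-4.59) and Cpr47Eg (-4.57) encode proteins of the chitin-binding Cpr family. Osi15, of the insect-specific Osiris family, was 4.25, 4.41 and 3.99 against 8.39, 9.07 and 8.52 (change -4.44, adjusted p = 0.00318). The other 3 of the 12 largest falls were CG17290 (-5.97), CG9083 (-5.07) and EAChm (-4.49). With the replicate block 10 of these 12 falls passed, and Cpr64Ad (adjusted p = 0.0568) and EAChm (adjusted p = 0.0552) did not.

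**Figure D2:**
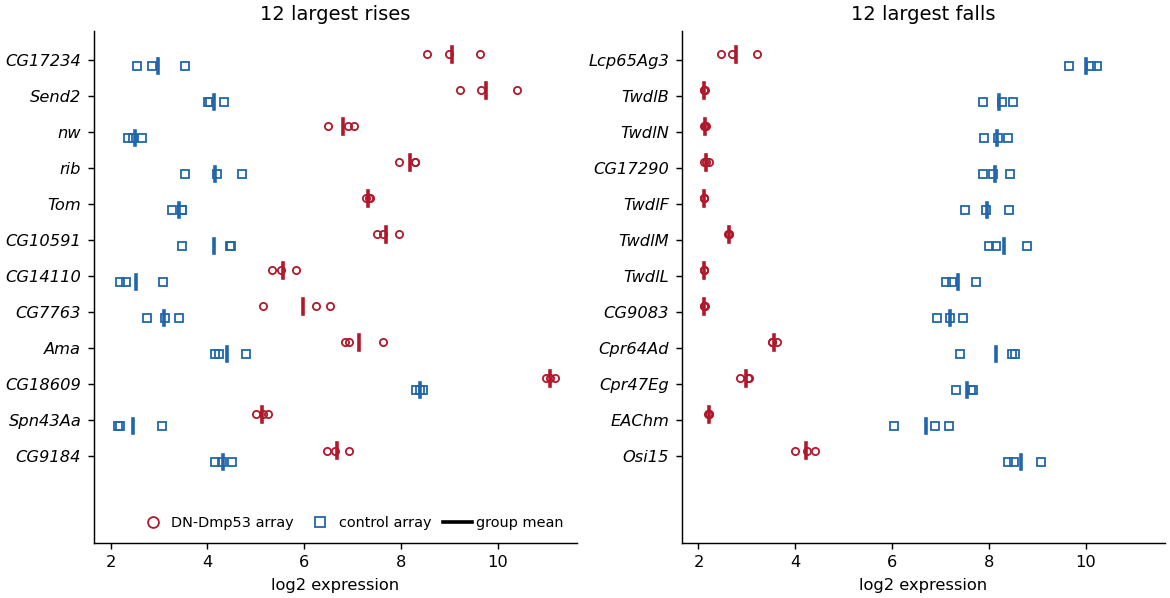
Log2 expression (x axis) of the 12 genes with the largest rises (left) and the 12 with the largest falls (right) on each of the 3 DN-Dmp53 arrays (red circles) and 3 control arrays (blue squares), with group means as bars. The genes were chosen among those whose groups do not overlap, and 6 of the falls end at a treated mean within 0.1 of the floor of 2.11.

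Of 147 genes of the cuticle list on the array, 97 passed the filter on low values, 28 were called lower and 1 higher. Over all genes 1.12% were called lower. The median change of the 147 was 0.00, as it was over all genes on the array, and 68 of the 147 had means within 0.1 of the floor in both groups, where no change can be seen. With the block 17 were lower and 1 higher. By family, 11 of 24 Tweedle genes on the array fell, 6 of 24 Osiris genes, 8 of 66 Cpr genes and 2 of 7 Lcp genes. No member of these 4 families rose except Cpr67B, which was 9.64, 9.75 and 9.76 against 8.66, 8.82 and 8.72 (change 0.98, adjusted p = 0.00426). Osi6 was 8.58, 8.75 and 8.36 on the treated and 11.45, 11.78 and 11.53 on the control arrays, a change of -3.02 (adjusted p = 0.00258). It stayed well above the floor, so that this fall is measured at both ends.

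Further genes of cuticle formation, named after their values were seen, fell as well. The chitin deacetylases verm (-1.67) and Cda4 (-3.28), Gasp (-1.36), a chitin-binding protein of the tracheae, dyl (-3.07), a membrane protein that shapes forming cuticle, and the chitinase Cht7 (-2.77), the other called member of the list, were all called lower. Vajk1 (-2.90), Vajk2 (-4.17) and Vajk3 (-4.41), which are neighbours in the genome, were called lower and Vajk4 (-1.93, adjusted p = 0.0597) was not. Going the other way, Pcp, a pupal cuticle protein that is not on the list, rose by 1.58 (adjusted p = 0.00562). Of the 105 genes called lower, 19 lay in 9 runs of called neighbours in the order of named genes along the chromosomes, among them Osi14 with Osi15, Osi19 with Osi20, TwdlB with TwdlL and TwdlF with TwdlG. Of the 111 called higher, 10 lay in 4 runs. No background for such runs was computed, so that these counts are a description.

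The level of cuticle genes in the control group was compared with that of the other 13 groups of the series. On the 3 control arrays 44 to 46 of the 147 genes exceeded a log2 level of 4, and on the 3 treated arrays 20 to 22 did. In dSir2 flies of day 10 the range was 37 to 41 with induction and 33 to 35 without. In Canton-S controls of day 10 it was 25 to 26, and at day 40 it was 19 to 22 in the DN-Dmp53 controls and 22 to 31 in the induced flies. By this count the uninduced DN-Dmp53 flies of day 10 were the highest of the 14 groups, without overlap with any other, while the induced flies lay within the range of the groups of day 40. By the summed linear level of the list they were not. The sum was 26938 to 28620 in the uninduced flies, against 29175 to 31750 in dSir2 flies, 29463 to 32450 in yw/w1118 flies and 32059 to 36915 in Canton-S flies on DR, all of day 10. It was 19242 to 21088 in the induced flies, 19056 to 19612 in the dSir2 controls and 16306 to 18085 in the Canton-S controls. Lcp65Ag3 itself was 9.16 to 9.59 in the dSir2 controls of day 10, close to its level in the DN-Dmp53 controls, 4.70 to 5.98 in the Canton-S controls of day 10 and 2.11 to 2.35 in the DN-Dmp53 controls of day 40. Its level of 2.46 to 3.20 in the induced flies of day 10 lay below that of every other group of day 10. Which tissue or stage in the pooled females gave these transcripts was not tested.

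**Figure D3:**
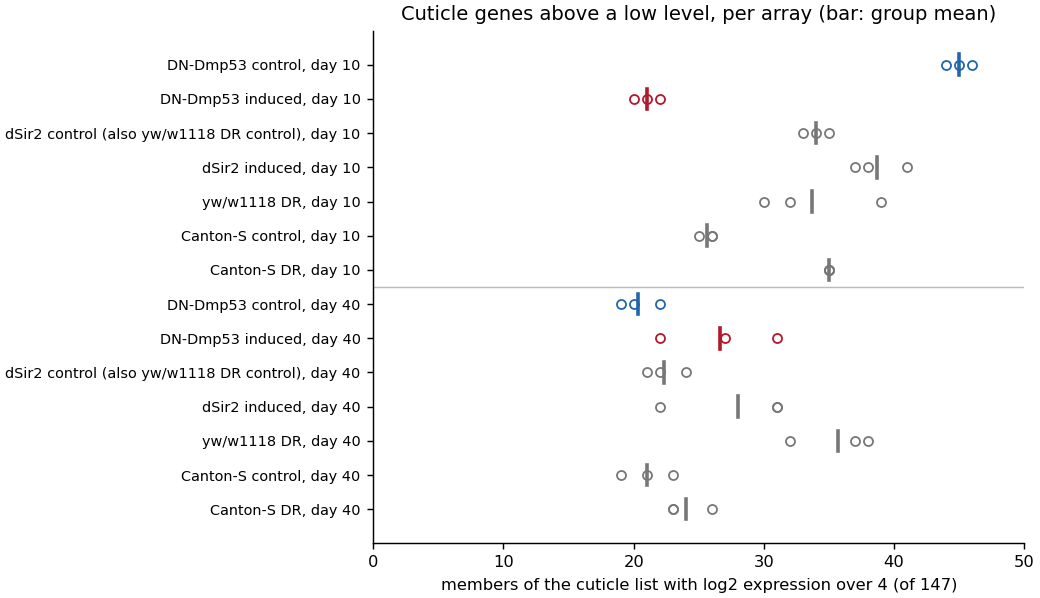
Number of the 147 cuticle genes with a log2 expression over 4 (x axis) on each array of the 14 groups (rows), with group means as bars. Blue marks uninduced and red induced DN-Dmp53 flies, and at day 10 these hold 44 to 46 and 20 to 22 genes.

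Outside the cuticle, the falls included genes of fat body and of amino acid metabolism. Lsp2, a larval storage protein of the fat body and hemolymph, was 9.95, 10.07 and 9.60 on the treated arrays and 12.92, 12.88 and 13.09 on the control arrays. It fell by 3.09 on the log2 scale (standard error 0.14, adjusted p = 0.00246), an abundant transcript in both groups, with an adjusted p = 0.0511 in the blocked fit. Gnmt, the glycine N-methyltransferase that uses up S-adenosylmethionine, was 10.37, 10.38 and 10.55 against 12.69, 12.54 and 12.72 (change -2.22, standard error 0.08, adjusted p = 0.0011, and adjusted p = 0.029 in the blocked fit). Of the 18 fat body genes on the array, these were the 2 called lower, against 1.12% of all genes. Idgf1 (1.0), a secreted chitinase-like growth factor, was called higher, against 1.18% of all genes. The list as a whole did not fall, with a median change of 0.06, 11 members above 0 in the mean and 7 below. Its summed linear level, to which abundant genes such as Lsp2 and Gnmt add most, was 65546 to 68628 on the treated and 75278 to 77758 on the control arrays. Named after their values were seen, smp-30 (-1.65), a regucalcin, Sodh1 (-1.28), a sorbitol dehydrogenase, Dgat2 (-1.0), which makes triglyceride, and Hpd (-0.88), of tyrosine breakdown, were called lower, as was the border cell transcription factor slbo (-2.38). None of these 5 passed in the blocked fit, where their adjusted p-values were 0.0536 to 0.0664. The stress peptide TotC fell (-1.02, adjusted p = 0.0448) and was the only one of 5 Turandot genes on the array that passed the filter. Neither TotC (adjusted p = 0.0597) nor Idgf1 (adjusted p = 0.08) was called with the block.

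Among the rises, the 2 largest were peptidases of the spermatheca, the organ in which females store sperm. CG17234 was 9.0, 8.55 and 9.63 on the treated arrays and 3.54, 2.85 and 2.54 on the control arrays, a rise of 6.08 (standard error 0.40, adjusted p = 0.00612). Send2, a spermathecal endopeptidase, was 9.66, 9.22 and 10.41 against 4.05, 4.35 and 4.01, a rise of 5.63 (standard error 0.34, adjusted p = 0.00495). In the blocked fit they had an adjusted p = 0.0597 and an adjusted p = 0.0572. Both were also high in flies on DR at day 10. There CG17234 was 5.73 to 8.84 in yw/w1118 and 8.33 to 9.87 in Canton-S flies, and Send2 6.82 to 9.41 and 7.93 to 9.66. In the dSir2 controls they were 2.42 to 2.50 and 3.31 to 3.92, and in the Canton-S controls 4.18 to 6.13 and 3.96 to 5.02. Send1 (0.82) and CG9897 (0.65) rose less, from already high control levels of 9.81 to 9.90 and 9.07 to 9.21. Of 9 genes of the spermatheca list 5 were called higher, against 1.18% of all genes, and the median change was 0.57 against 0.00 over all genes. The list was chosen with earlier results of these data known, so that this count is a description. The fifth, CG4267, was called on a second probeset only, and its main probeset changed by -0.23. None of the 5 was called with the block. The summed linear level of the list was 11515 to 13749 on the treated and 7576 to 8034 on the control arrays. CG17234 lies between Send1 and CG17239, which also rose (1.03, named after its values were seen), in the order of named genes.

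Of the other 10 of the 12 largest rises, 9 were of genes whose control arrays lay between 2.15 and 4.8. nw, a C-type lectin, was 7.03, 6.91 and 6.5 against 2.66, 2.36 and 2.47, a rise of 4.32 (standard error 0.17, adjusted p = 0.00167). rib, a BTB transcription factor known from the embryonic trachea and salivary gland, was 8.29, 8.30 and 7.96 against 4.72, 3.54 and 4.21 (4.03, adjusted p = 0.0118). Tom, a Bearded family protein that dampens Notch signalling, was 7.37, 7.27 and 7.35 against 3.48, 3.27 and 3.47 (3.92, standard error 0.07, adjusted p = 0.000281). CG10591 (3.55), CG14110 (3.03), CG7763 (2.89), Ama (2.75), a secreted adhesion protein, the serpin Spn43Aa (2.67) and CG9184 (2.36) also rose. The tenth, CG18609, a peptidase, rose by 2.70 from a control level of 8.31 to 8.46. With the block nw, Tom, Ama and CG18609 passed, and the other 8 of the 12 had adjusted p-values of 0.0572 to 0.0793.

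Tom and rib were not uniform over the series. In the DN-Dmp53 controls of day 10 Tom was 3.27 to 3.48, below its range in the other 6 groups of that age, of which the dSir2 controls had 4.32 to 5.63 and the yw/w1118 flies on DR 7.11 to 8.0. For rib the treated arrays, at 7.96 to 8.30, lay above every other group of day 10, of which the nearest was DR in the same background at 7.25 to 7.76. nw was 2.44 to 2.64 in the dSir2 controls, like the DN-Dmp53 controls, and 4.92 to 5.94 in the Canton-S controls.

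The clock gene tim, whose protein pairs with that of per, was 10.00, 9.98 and 9.76 on the treated and 7.87, 8.32 and 7.98 on the control arrays, a rise of 1.86 (standard error 0.15, adjusted p = 0.0108). It was the only one of 12 clock genes called, per was at -0.33 and Clk at -0.01, and the median of the list was 0.01. A second probeset of tim changed by 1.04 and did not pass (adjusted p = 0.744), and in the blocked fit the main probeset had an adjusted p = 0.0568. The sources used here do not give the time of day at which the flies were collected. Genes of the takeout family encode secreted proteins that are thought to bind juvenile hormone or like molecules. Of 22 on the array, Jhbp2 (2.19, adjusted p = 0.0302) and CG7079 (0.79) rose, against 1.18% of all genes, and none fell. With the block these 2 lost their calls (adjusted p = 0.0632 and adjusted p = 0.0647), and Jhbp7, at -0.71 (adjusted p = 0.0547 without the block), was called lower. takeout itself has no probeset that names it alone here. Jhedup, of the juvenile hormone esterase family, rose by 0.73, the only one of 28 genes of juvenile hormone and ecdysone that was called, and was not called with the block (adjusted p = 0.104).

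Of 38 genes of defense on the array 3 were called higher, against 1.18% of all genes, and none lower. All 3 were Bomanins, short secreted peptides that the Toll pathway switches on. BomT2 was 10.43, 10.68 and 10.71 against 9.43, 9.73 and 9.35 (1.10, adjusted p = 0.0295), BomS2 rose by 0.86 and BomS5 by 0.77. These 3 genes are neighbours in the order of named genes, and with the block only BomS5 was called. The median change of the 38 was 0.22. Drs, the antifungal peptide drosomycin, was at 0.18 (adjusted p = 0.256).

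Of 17 neuron genes tested 16 were above 0 in the mean, as were 9 of 10 photoreceptor genes, against 45.5% of all genes tested. Called higher were 2 neuron genes and no photoreceptor gene, against 1.18% of all genes. Syngr, a synaptic vesicle protein, was 7.95, 7.79 and 7.73 against 6.71, 7.10 and 6.80 (0.95, adjusted p = 0.0322), and Snap25, of the vesicle fusion machinery, rose by 0.59. With the block both lost their calls (adjusted p = 0.095 and adjusted p = 0.088). The 18 neuron genes on the array had a median change of 0.29. elav, whose promoter is the source of the driver, was 4.79, 5.10 and 6.27 against 3.59, 3.94 and 4.88. Its replicate 3 was the highest in each group, the groups overlapped, and the change of 1.25 passed only with the block (adjusted p = 0.36 without it, adjusted p = 0.0462 with it). The summed level of the neuron list was 5179 to 5520 on the treated and 3871 to 4197 on the control arrays. The 10 photoreceptor genes had a median of 0.29 and none was called, with summed levels of 14563 to 16707 against 10701 to 11658. The part of head tissue in the rises of neuronal genes was not tested. Nplp3, a neuropeptide precursor, rose by 0.86, with an adjusted p = 0.088 in the blocked fit.

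In gut and detoxification genes changes went both ways. Over all genes tested 1.18% were called higher and 1.12% lower. The Jonah digestive peptidases that fell were Jon44E (-1.30), Jon25Bi (-0.94), Jon25Bii (-0.82) and Jon65Ai (-0.79), while the trypsin iotaTry rose (0.63). The 28 digestive peptidases had a median change of -0.01, and none was called with the block. Mal-A4, a maltase, fell by 0.73 on the log2 scale, and Npc2d, a sterol-binding protein of the midgut, rose by 0.80, and neither was called with the block. Of 83 cytochrome P450s on the array Cyp6a20 (0.96), Cyp4ac3 (0.95) and Cyp313a1 (0.59) were higher and Cyp6a2 (-0.81) was lower, with a median of 0.00, and Cyp313a1 alone was called with the block. None of 69 glutathione and UDP-glycosyl transferases was called. MtnA, the metallothionein that binds copper, was 13.77, 13.70 and 13.34 against 12.46, 12.52 and 12.27, a rise of 1.19 (standard error 0.14, adjusted p = 0.0267) that also passed with the block (adjusted p = 0.0462).

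Few members of the reproduction and housekeeping lists were called. Over all genes tested 2.3% were called, 1.18% higher and 1.12% lower, and at that share lists of this size can hold few calls or none. The follicle cell gene Fcp3C (-0.67, adjusted p = 0.0263) was the only one of 17 eggshell genes called, was not called with the block (adjusted p = 0.0949), and the list had a median of -0.29 with 15 of 17 lower in the mean. The summed linear level of the eggshell list was 228302 to 257944 on the treated and 279133 to 292261 on the control arrays. Of 33 oogenesis and maternal genes tested 24 were lower in the mean, against 4950 of all 9395 genes. That list had a median of -0.09 and no member called. The 21 genes of DNA replication and the cell cycle had a median of -0.25, with 20 lower in the mean and none called. Yolk genes (median -0.02), cytosolic ribosomal proteins (0.01 over 41 on the array, of which 38 were tested), oxidative phosphorylation (0.00 over 72), muscle (0.08) and heat shock genes (0.09) had no member called. The median change of the 6836 genes with a mean level over 6 was -0.03.

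**Figure D4:**
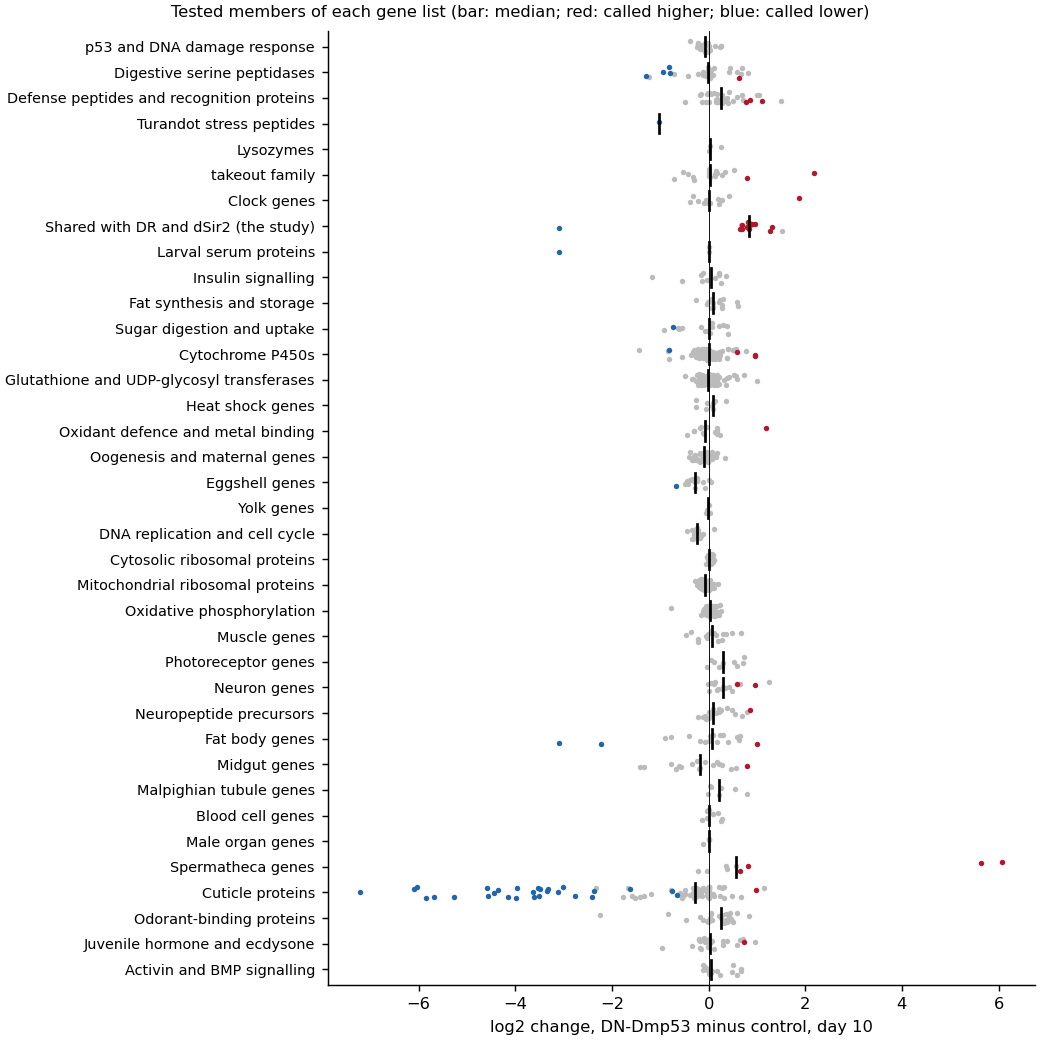
Log2 change, DN-Dmp53 minus control (x axis), of the tested members of each gene list (rows). Red and blue points are called higher and lower, grey points are not called, and black bars are medians, which lie within 0.3 of 0 except for the Turandot (1 gene), spermatheca and study-chosen lists.

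The study lists 21 genes that changed in DR, dSir2 and DN-Dmp53 flies alike, and 16 of them have a probeset that names them alone. They were chosen on these arrays, so that their direction is no independent evidence. Of the 16, 13 were called higher and Lsp2 lower. CG6870 (1.31), salt (1.27), Syngr, CG3091 (0.89), Nplp3, CG10553 (0.84), CG17124 (0.84), CG13928 (0.84), CG5646 (0.82), Mipp1 (0.79), CG42249 (0.70), CG14687 (0.70) and CG5612 (0.64) were the 13. CG10553 had the closest replicates, at 9.98, 9.95 and 9.97 against 9.10, 9.12 and 9.17. The activin ligand daw was 9.08, 8.81 and 8.97 against 8.23, 8.44 and 8.16, a change of 0.68 that narrowly missed the threshold (adjusted p = 0.0524). CG30033 changed by 1.51 (adjusted p = 0.0781) and passed with the block (adjusted p = 0.0462). With the block 6 of the 13 rises passed.

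At day 40 the same induction was measured on 6 other arrays. limma called 1 gene higher, Pkcdelta at 0.83 (0.0104% of 9631 genes tested), and none lower. These arrays were less even than those of day 10. Of the 25 male organ genes, 9 and 10 exceeded a log2 level of 4 on induced replicates 1 and 3. On induced replicate 2 and on each control 1 did. The summed level of the eggshell list was 140398 to 260335 on the controls and 288116 to 338538 on the induced arrays. The part of this in the day 40 results was not tested. Before adjustment a p below 0.05 was met by 864 genes higher and 603 lower. Of the 110 genes called higher at day 10, 72 (65.5%) were above 0 at day 40, against 53.5% of all genes tested. Of the genes called lower, 99 had a value at day 40 and 23 of them (23.2%) were below 0. In 27 of the 99 the mean of the day 40 controls was within 0.1 of the floor, so that a fall could not be measured, and this share cannot be read against other genes. Of the 46 whose day 40 controls exceeded a log2 level of 4, 13 (28.3%) were below 0, against 46.3% of all genes with such controls. The effect of day 40 minus that of day 10 passed the test for 1.91% of all genes (1.14% higher, 0.772% lower), and for 26 of the 110 and 74 of the 104. The day 10 values that chose these genes enter the difference. Of the 9 large rises with low controls, the change at day 40 was 3.08 for nw, 2.97 for rib, 2.74 for Tom, 2.81 for CG10591, 2.88 for CG14110, 3.13 for Spn43Aa, 1.92 for CG9184, 1.09 for Ama and -0.03 for CG7763. None of the 9 passed at day 40 by itself (adjusted p of 0.206 to 1.0), and the difference between ages was not called for any of them (adjusted p of 0.149 to 1.0). In the spermatheca pair the difference was called. At day 40 Send2 changed by 0.06 (adjusted p of the difference 0.00464) and CG17234 by -0.36 (adjusted p of the difference 0.000997). Their day 40 controls, at 6.90 to 7.51 and 7.72 to 7.96, lay above those of day 10. Lcp65Ag3, which was at 2.11 to 2.35 in the controls of day 40 and had no room to fall, changed by 0.74 (adjusted p of the difference 2.94e-06). Osi15 changed by 3.41, opposite to its fall at day 10 (adjusted p of the difference 0.021). That change did not pass at day 40 by itself (adjusted p = 0.354).

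Flies with induced neuronal dSir2 at day 10 received RU486 from the same driver background, with controls of their own. Of the genes called higher with DN-Dmp53, 91 of 110 (82.7%) were above 0 with dSir2, against 47.2% of all genes, and 29 were called higher there and none lower. In dSir2 flies 629 genes were called higher, or 6.63% of those tested, and 540 lower, or 5.69%. Of the 104 called lower with DN-Dmp53, 26 (25%) were below 0 with dSir2, against 52.0% of all genes, with 25 called higher and 3 lower. The difference between the 2 effects passed for 6.85% of all genes (2.69% higher, 4.16% lower), and for 42 of the 110 and 90 of the 104. The DN-Dmp53 values that chose these genes enter this difference, as they do for the genes named below, so that these counts are a description. Jhbp2 rose with both inductions, by 2.19 and 2.76, and MtnA changed by 1.19 and 0.82, with differences that did not pass (adjusted p = 0.349 and adjusted p = 0.356). Lsp2 fell by 3.09 and 2.74 (adjusted p of the difference 0.473). Nplp3 rose by 0.86 with DN-Dmp53 and changed by 1.59 with dSir2, and that difference passed (adjusted p = 0.0467). In contrast nw (0.04 with dSir2), Tom (0.02), rib (-0.24) and CG18609 (0.00) differed, with adjusted p-values of 2.38e-05 for nw, 0.00425 for Tom, 0.0253 for rib and 2.81e-05 for CG18609. Of 24 Osiris genes on the array 7 were called higher in dSir2 flies and none lower. The 6 that fell with DN-Dmp53 were all among the 7, with Osi6 at 5.17, Osi9 at 3.06 and Osi14 at 2.66, and the difference passed for all 6 (for these examples adjusted p of 0.00347, 0.000199 and 0.000213). Gnmt, at 0.20 with dSir2, differed too (adjusted p = 0.00548). CG17234 changed by 1.97 and Send2 by 2.32 with dSir2, and neither was called there (adjusted p = 0.23 and adjusted p = 0.15). The difference from DN-Dmp53 passed for CG17234 (adjusted p = 0.0491) and not for Send2 (adjusted p = 0.0804).

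**Figure D5:**
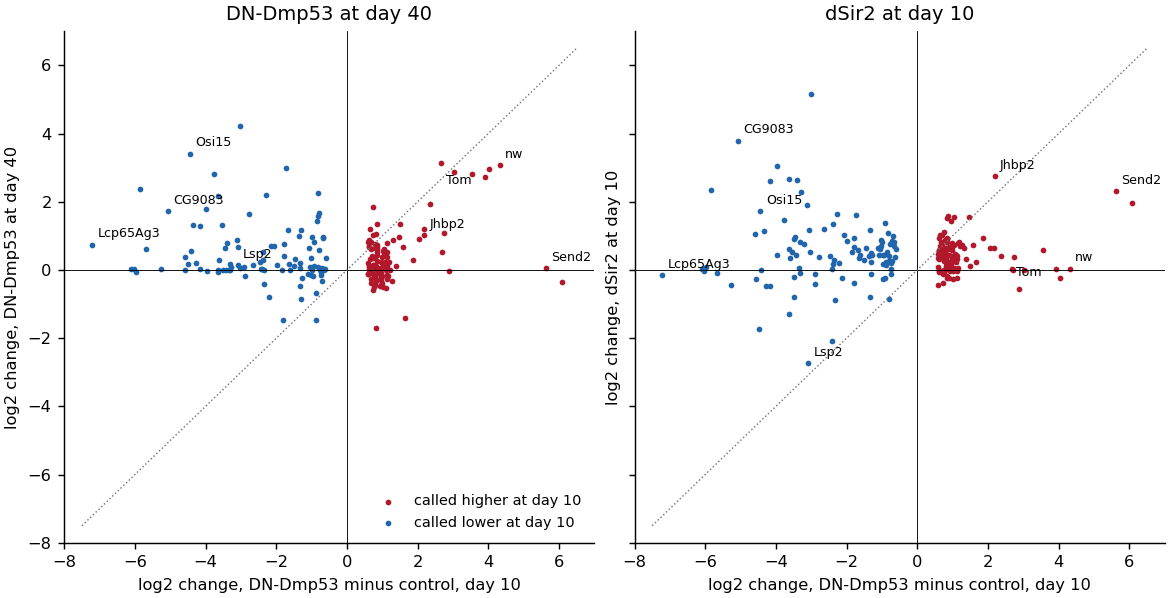
Log2 change at day 10 with DN-Dmp53 (x axis) of the genes called higher (red) and lower (blue) against their change with DN-Dmp53 at day 40 (left) and with dSir2 at day 10 (right), on arrays not used for the calls. The dotted line marks equal changes, and 23 of 99 genes that fell are below 0 at day 40, where 27 of the 99 had controls near the floor, and 26 of 104 with dSir2.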

How the data were processed

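RNA of pooled females was hybridized to Affymetrix Drosophila 2.0 arrays. The authors normalized the arrays by quantiles and summarized probes with GCRMA (the sources used here name no version). The deposited log2 values were used unchanged. Array data carry no read depth, and 3 arrays a group limit the precision. Control probesets (183) were left out. The supplied probe table names 1 gene for 13647 probesets (13544 matched to RefSeq), several for 402, and 4720 are unnamed here. No 2 arrays held identical values.

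A probeset whose mean did not exceed the 25th percentile in either group was treated as absent, and 12268 stayed. Groups were compared with limma 3.58.1 (R 4.3.3; lmFit and eBayes) and Benjamini-Hochberg adjustment over all of these. A call needed an adjusted p below 0.05 together with a fold above 1.5, on at least 1 probeset specific to the gene. Printed values are those of the gene's brightest probeset, by its mean on the 42 arrays. The fit was tested on simulated data. Python 3.11.15 with numpy 2.4.6, pandas 2.3.3 and matplotlib 3.10.9 made the tables and plots.

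Deviations from the group means correlated between arrays of equal number at 0.61, 0.42 and 0.76, so that the number was fitted as a block. Replicates 1 and 2 also correlated across numbers (0.43 and 0.48), and replicate 3 with the others at -0.68 to -0.53.

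The genes named are the 12 largest rises and falls with arrays that do not overlap, up to 4 called members of each list, the genes the study names and p53. Gene lists and members were chosen with earlier results of these data known, so that the counts of their called members are descriptions. Alternatives were other filters, all 14 groups in one fit, the block, array weights, other scalings, a variance trend, the methods' t-test, Welch's test, no fold threshold, counts of probesets, and fits without 1 array. Leaving out replicate 3 of both groups was chosen after seeing the data. A planned search of promoters for motifs was not run.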

Additional observations from a re-analysis of the deposited data

Results flagged for a closer look

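The effect of DN-Dmp53 was measured at 2 ages, and for 23 of the named genes the difference between them passed limma's test with the same thresholds. Values here are the log2 change at day 40 minus that at day 10. Among genes that rose at day 10 the difference was -6.44 for CG17234, -5.57 for Send2, -2.18 for CG18609, -1.60 for salt, -1.57 for tim, -1.38 for Idgf1, -1.22 for Cyp4ac3, -0.96 for MtnA, -0.95 for CG5646, -0.92 for Syngr and -0.79 for CG14687. In the controls of day 40 CG17234 was 7.72 to 7.96, Send2 6.90 to 7.51 and CG18609 10.29 to 11.16. On the control arrays of day 10 they were 2.54 to 3.54, 4.01 to 4.35 and 8.31 to 8.46. The induced flies of day 40 were at 6.79 to 8.29, 6.72 to 8.45 and 11.09 to 11.53. These rises and the 12 largest falls of day 10 were chosen on values that enter this difference, so that its sign is a description. Among the 12 falls it was 8.22 for TwdlF, 7.96 for Lcp65Ag3, 7.85 for Osi15, 6.79 for CG9083, 6.29 for TwdlM, 6.13 for TwdlB, 6.05 for TwdlN, 5.92 for CG17290, 5.28 for TwdlL, 4.96 for Cpr64Ad, 4.65 for EAChm and 4.57 for Cpr47Eg. In the controls of day 40 the means of 6 of these 12 genes (Lcp65Ag3, TwdlB, TwdlN, TwdlF, TwdlL and CG9083) were within 0.1 of the floor, and those of CG17290 and EAChm were little above it, so that no fall could be measured. Induced replicates 1 and 3 of day 40, on which 9 and 10 male organ genes exceeded a log2 level of 4, enter these differences. Groups of 3 arrays are too small for a test of single outlying arrays.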

How the results depend on the processing

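The counts of calls depended on the model. Genes higher numbered 111 and were 53 with no filter on low values, 178 with absent set at the 50th percentile, 177 with all 14 groups in one fit, 50 with the replicate block, 199 with array weights, 169 by the methods' t-test (49 after adjustment), 212 with no fold threshold and 32 without replicate 3 of both groups. Genes lower numbered 105 and were 43 with the block, 163 with no fold threshold and 50 without replicate 3 of both groups. Leaving out each array gave 26 to 71 higher and 45 to 106 lower. The difference between ages (114 higher, 77 lower) gave 206 and 200 with all 14 groups, 38 lower with no filter, and 76 to 151 and 28 to 90 with single arrays left out. The difference from dSir2 (264 and 409) gave 164 higher with the block, and 154 to 328 and 284 to 495 with single arrays left out. Fewer arrays leave fewer degrees of freedom, and the cause of the other shifts was not tested. p53 stayed at 0.17 to 0.27 and was not called under any setting. Of the 63 named genes that were called, none changed direction under any alternative run. The block kept 24 of them, the unfiltered fit 38 and the fit without replicate 3 of both groups 29, while array weights, centring, the 50th percentile and the methods' t-test kept all 63. Centring each array moved the median by 0.0. The motif search was not run, since no promoter sequences were supplied. Changes below the floor of 2.11 cannot be seen.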
